A study of Homo sapiens with 12 samples.

Results

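Levels of 7 genes, DHRS2, ABCA1, SPTSSB, MGAT4A, GASK1B, NOS1AP and DNAH3, were followed through a knockdown of the transcription factor subunit gene NFYA in HCT116 cells. The 7 genes were selected on the deposited counts themselves, for large changes under siRNAs to all NFYA transcripts (siTotal), in both siTotal groups or in 1 alone, that were not also seen between mock-transfected and siControl cells. They are 7 of 63677 listed genes and 7 of the 17730 genes with enough reads to be tested. Their values in siTotal, siControl and mock are therefore descriptions with no test, and tests are given only for the siLong groups, which did not enter the choice.

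HCT116 is an epithelial line from a human colon carcinoma. The 12 libraries of polyadenylated RNA fell into 6 groups of 2: siTotal1 and siTotal2 (siRNA #1 and siRNA #2 to total NFYA), siLong1 and siLong2 (siRNA #1 and siRNA #2 to the long isoform of NFYA, the transcripts with the longest 3′ UTR), mock (transfected without siRNA) and siControl (a non-targeting siRNA). Cells were transfected with Lipofectamine, with any siRNA at 62.5 nM, and cells were collected 72 h later. The design describes the libraries of a group as biological duplicates, so p-values measure the spread between 2 cultures given 1 siRNA, not the spread between siRNA sequences.

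NF-Y is a trimer of the NFYA, NFYB and NFYC products that binds CCAAT boxes, mostly in promoters, and NFYA is the subunit that reads the sequence. The 7 genes belong to no single pathway. DHRS2 encodes a short-chain dehydrogenase/reductase that is also known to bind MDM2, the ubiquitin ligase of p53. ABCA1 encodes the transporter that hands cellular cholesterol to apolipoprotein A-I, and SPTSSB a small activating subunit of serine palmitoyltransferase, which starts sphingolipid synthesis. MGAT4A and GASK1B encode Golgi proteins, an N-glycan branching enzyme and a member of a family of secretory-pathway kinases. NOS1AP encodes an adaptor of neuronal nitric oxide synthase, and DNAH3 a heavy chain of the axonemal dynein that moves cilia.

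The siRNA sequences are shown because each group received 1 of them and several of the 7 genes differed between groups given different sequences to 1 target. They are given as the sense strands in the labels, which do not say which sequence of a pair is #1. Capitals mark bases 12 to 18, which pair with bases 2 to 8 (the seed) of the antisense strand.
siTotal, first sequence: acuagaggcagAAGGGAAa
siTotal, second sequence: uggugaaggugGACGAUUu
siLong, first sequence: agugaucauugUAGGGUAa
siLong, second sequence: ggucauuccuuUAGCAUCa
Each siTotal sequence, searched only as the whole run of 19 bases, matched 1 gene among the 206694 transcripts of GENCODE 29, which was NFYA. It matched 0 of the 7 genes. Matches of the seed alone were not searched, so pairing of the seed with the 7 genes was not tested. The siLong sequences, searched the same way and only in the printed direction, matched 0 of the GENCODE 29 transcripts, those of NFYA included. Their target and strand are therefore taken from the labels and were not checked here.

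CCAAT boxes were looked for in the RefSeq promoter windows (GRCh38.p14, 250 bases before to 50 after the annotated start) because NF-Y binds that motif. Windows were found for 5 of the 7 genes (6 windows), and CCAAT was searched on both strands. It occurred in 1 window, that of GASK1B on chromosome 4 (minus strand), at 86 and at 55 bases before the RefSeq start of that window. On this strand the GENCODE span of GASK1B given below starts at 158173318, so each box lies inside that span. The surrounding bases are at chr4:158173095-158173123 and chr4:158173064-158173092, with the motif in capitals.
GASK1B, upstream box: aaaccacccaggCCAATccctaacctgtt
GASK1B, downstream box: ttcaaaaaacctCCAATcagagagaatcc
Of all 35116 windows of this length, 34.6% held at least 1 CCAAT on either strand and 10.6% held 2 or more. The windows used for DHRS2, ABCA1, SPTSSB and NOS1AP and the other window of GASK1B held 0. The SPTSSB and NOS1AP windows and both GASK1B windows lie wholly inside the gene spans given below, at starts inside the gene.

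Library totals ran from 35604197 to 49746637 reads. NFYA itself fell by 0.28 (log2; SE 0.05) in siTotal1 and by 0.32 (SE 0.05) in siTotal2 against siControl, with edgeR quasi-likelihood adjusted p = 1.7e-05 and 1.8e-06. With mock as the reference, siLong1 was lower in NFYA, at -0.28 (adjusted p = 1.1e-05), whereas the libraries labelled siLong2 were higher, at 0.29 (adjusted p = 3.3e-06), and a count per gene does not measure the long isoform by itself. Epithelial markers were present: EPCAM was at 164.4 CPM (counts scaled to a common library size after TMM) or more in every library, while VIL1 reached 0.170 CPM at most. The summed level of the 8 epithelial markers was 3617 to 3854 CPM in siTotal1, 3355 to 3500 in siTotal2, 5603 to 5617 in siLong1, 5072 to 5268 in siLong2, 3538 to 3744 in mock and 3460 to 3540 in siControl, and the part of this difference in the siLong results was not tested. Blood markers summed to 0.724 CPM or less in every library. Summed neural markers, mostly MAP2 and TUBB3, were 18.7 to 19.3 CPM in siTotal1, 32.0 to 35.3 in siTotal2, 17.9 to 18.4 in siLong1, 33.4 to 35.7 in siLong2, 17.7 to 20.0 in mock and 17.0 to 17.9 in siControl. Summed fibroblast markers, mostly COL1A1, were 26.4 to 45.9 CPM over the 12 libraries. In bulk RNA, a change in the number of cells that express a gene and a change in RNA per cell cannot be told apart.

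**Figure D1:**
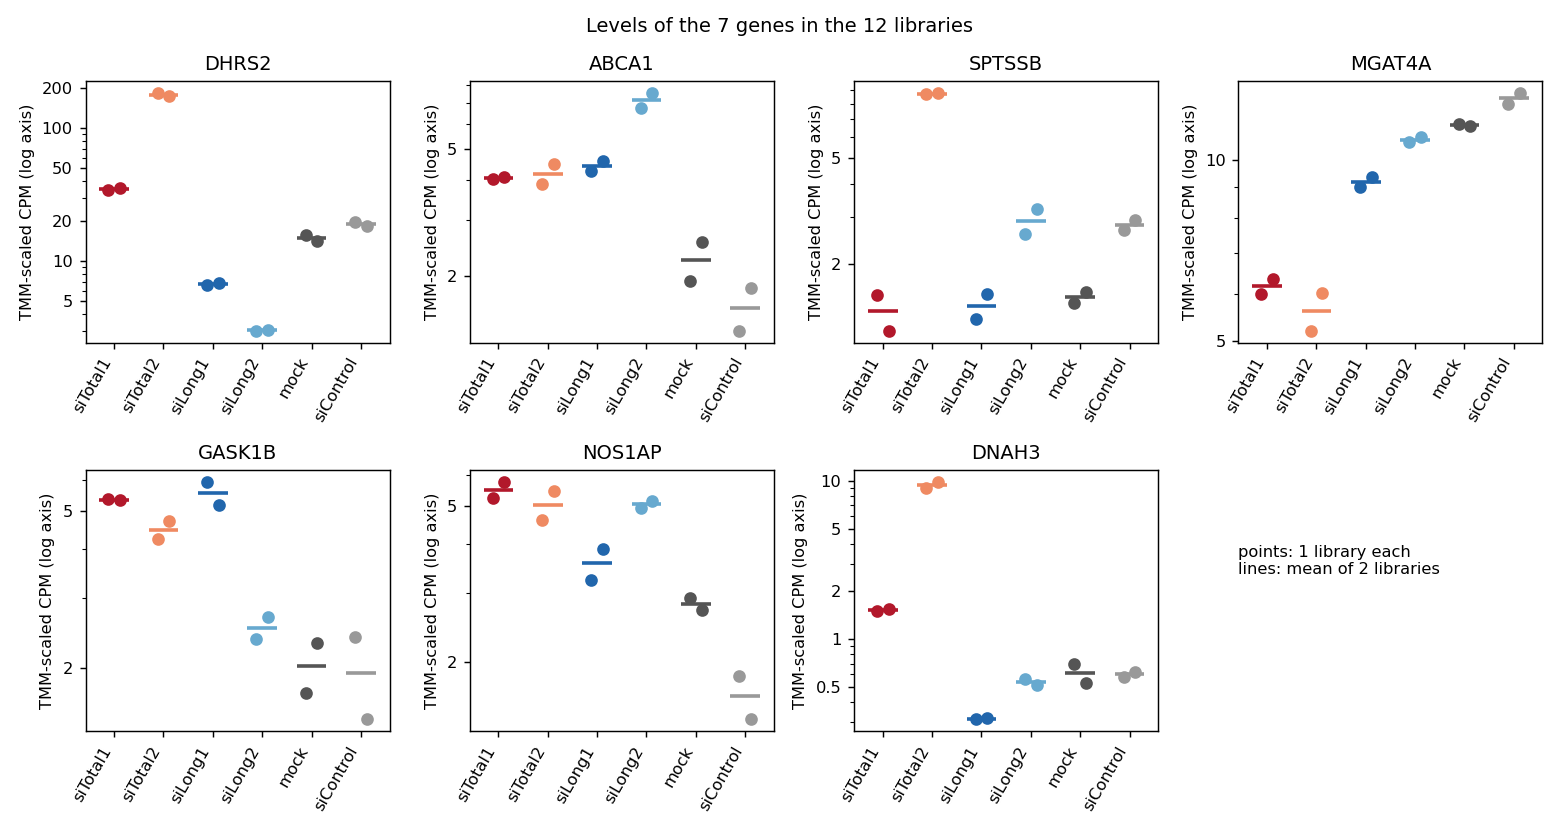
Levels of the 7 genes in CPM on log axes, with 1 point per library and a line at the mean of each group of 2. DHRS2 and DNAH3 in siTotal2 stand furthest above the remaining groups, at means of 178.9 and 9.49 CPM.

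DHRS2 (ENSG00000100867, chromosome 14, 23630115 to 23645639 on GRCh38, plus strand) was higher in both siTotal groups and lower in both siLong groups than in either control. It stood at 34.1 and 35.4 CPM in siTotal1 and at 184.1 and 173.7 CPM in siTotal2. In siLong1 it stood at 6.61 and 6.86 CPM and in siLong2 at 3.01 and 3.06 CPM, against 15.6 and 14.1 CPM in mock and 19.8 and 18.6 CPM in siControl. No pair of groups overlapped, and the group means spanned 59.0-fold from siTotal2 to siLong2. Against siControl the difference was 0.86 (log2, SE 0.06) in siTotal1 and 3.22 (SE 0.06) in siTotal2, and mock was at -0.36 (SE 0.07). Per kilobase of annotated exons, the siTotal2 mean of 23.7 CPM was the highest of the 7 genes.

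ABCA1 (ENSG00000165029, chromosome 9, 104781002 to 104928237, minus strand) was higher in all 4 NFYA siRNA groups than in the controls, siLong included. It stood at 4.03 and 4.09 CPM in siTotal1 and at 3.88 and 4.49 CPM in siTotal2. The siLong1 libraries held 4.26 and 4.61 CPM and the siLong2 libraries 6.77 and 7.53 CPM, against 1.92 and 2.55 CPM in mock and 1.34 and 1.83 CPM in siControl. Its highest level was in siLong2, siLong1 overlapped siTotal2, and the siTotal groups overlapped each other. Against siControl ABCA1 was at 1.36 (SE 0.18) in siTotal1 and 1.40 (SE 0.17) in siTotal2, with mock at 0.48 (SE 0.19). The mock libraries did not overlap those of siControl. Against mock the values were 0.87 and 0.92.

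SPTSSB (ENSG00000196542, chromosome 3, 161344792 to 161372880, minus strand) lay on opposite sides of siControl in the siTotal groups. It stood at 1.53 and 1.12 CPM in siTotal1 and at 8.70 and 8.81 CPM in siTotal2. The siLong1 libraries held 1.24 and 1.54 CPM and the siLong2 libraries 2.59 and 3.23 CPM, against 1.43 and 1.56 CPM in mock and 2.68 and 2.94 CPM in siControl. Thus siTotal1, siLong1 and mock overlapped at the low end, siLong2 overlapped siControl, and siTotal2 was apart from all others. Against siControl SPTSSB was at -1.08 (SE 0.19) in siTotal1 and 1.64 (SE 0.14) in siTotal2, but mock was at -0.91 (SE 0.18), so the low siTotal1 level is also seen as a mock against siControl difference, contrary to the rule. Against mock the siTotal1 value was -0.17 and the siTotal2 value 2.55.

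MGAT4A (ENSG00000071073, chromosome 2, 98619106 to 98731126, minus strand) was the 1 gene of the 7 that was lower in both siTotal groups. It stood at 6.00 and 6.33 CPM in siTotal1 and at 5.21 and 6.02 CPM in siTotal2. The siLong1 libraries held 9.01 and 9.35 CPM and the siLong2 libraries 10.7 and 10.9 CPM, against 11.5 and 11.4 CPM in mock and 12.4 and 12.9 CPM in siControl. All 4 siTotal libraries were below the other 8, and the siTotal groups overlapped. Against siControl MGAT4A was at -1.04 (SE 0.10) in siTotal1 and -1.17 (SE 0.10) in siTotal2, with mock at -0.15.

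GASK1B (ENSG00000164125, chromosome 4, 158124474 to 158173318, minus strand) was higher in both siTotal groups and in siLong1. It stood at 5.36 and 5.32 CPM in siTotal1 and at 4.24 and 4.72 CPM in siTotal2. The siLong1 libraries held 5.93 and 5.16 CPM and the siLong2 libraries 2.37 and 2.69 CPM, against 1.73 and 2.31 CPM in mock and 2.39 and 1.48 CPM in siControl. The siLong1 range enclosed that of siTotal1, siLong2 overlapped siControl but not mock in range, and the controls overlapped each other. Against siControl GASK1B was at 1.46 (SE 0.17) in siTotal1 and 1.21 (SE 0.18) in siTotal2, with mock at 0.04. The antisense gene GASK1B-AS1 overlaps its start and had at most 27 reads in a library, against 55 to 210 for GASK1B.

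NOS1AP (ENSG00000198929, chromosome 1, 162069774 to 162370475, plus strand) was higher in all NFYA siRNA groups and also differed between the controls. It stood at 5.25 and 5.77 CPM in siTotal1 and at 4.60 and 5.46 CPM in siTotal2. The siLong1 libraries held 3.25 and 3.89 CPM and the siLong2 libraries 4.96 and 5.15 CPM, against 2.92 and 2.72 CPM in mock and 1.84 and 1.43 CPM in siControl. Every library of the 4 siRNA groups was above every control library, and siLong2 lay within the siTotal2 range. Against siControl NOS1AP was at 1.75 (SE 0.16) in siTotal1 and 1.62 (SE 0.16) in siTotal2, and mock was at 0.79 (SE 0.17), which again goes against the rule. Against mock the siTotal values were 0.96 and 0.84.

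The 3′ end of NOS1AP overlaps C1orf226 on the same strand, and reads of the shared part could be given to either gene. C1orf226 averaged 15.3 CPM in siTotal1, 13.9 in siTotal2, 13.5 in siLong1, 15.1 in siLong2, 9.75 in mock and 5.86 in siControl. It was thus also higher in the siRNA groups than in mock and higher in mock than in siControl, and its part in the NOS1AP values was not tested.

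DNAH3 (ENSG00000158486, chromosome 16, 20933111 to 21159441, minus strand) had at most 35 reads in any library outside the siTotal groups. It stood at 1.50 and 1.54 CPM in siTotal1 (54 and 55 reads) and at 9.09 and 9.90 CPM in siTotal2 (328 and 388 reads). The siLong1 libraries held 11 and 12 reads and the siLong2 libraries 20 and 18, against 35 and 22 reads in mock and 22 and 23 in siControl. All 4 siTotal libraries were above the other 8, and the controls overlapped each other. Against siControl DNAH3 was at 1.34 (SE 0.24) in siTotal1 and 3.98 (SE 0.19) in siTotal2, with mock at 0.05 (SE 0.28). LDAF1, which overlaps its start on the opposite strand, was at 0.09 in siTotal1 and 0.03 in siTotal2.

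Only 2 genes (DHRS2 and DNAH3) had all 4 siTotal libraries above the other 8, and 1 (MGAT4A) had them below; over all genes tested 1.78% were separated upward and 1.36% downward. Since the siTotal libraries chose the 7 genes, nothing is read from that comparison. For SPTSSB, ABCA1, GASK1B and NOS1AP at least 1 siLong or control library lay within or beyond the siTotal range. The siTotal groups were close to each other for ABCA1, MGAT4A, GASK1B and NOS1AP, with siTotal1 minus siTotal2 differences of -0.05, 0.13, 0.25 and 0.13 (log2). They were far apart for DHRS2 (-2.36), DNAH3 (-2.64) and SPTSSB (-2.72). The NFYA count differed by 0.04 between the same groups, and its bearing on these differences was not tested.

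**Figure D2:**
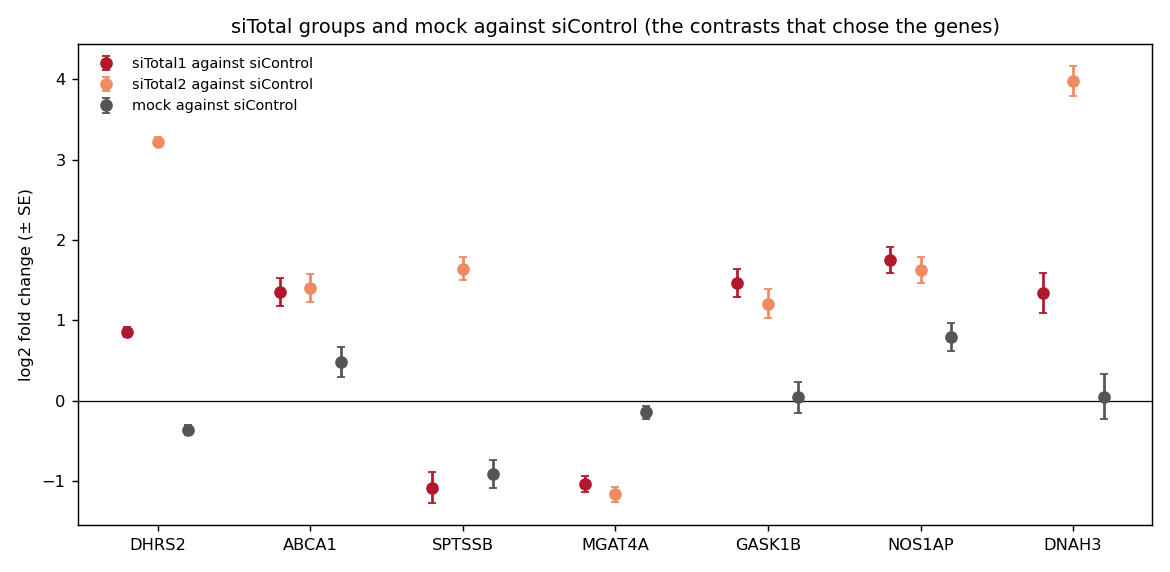
Log2 fold changes against siControl, with SE bars, for siTotal1, siTotal2 and mock, the contrasts by which the genes were chosen. The siTotal1 and siTotal2 points lie close together for 4 genes and apart for DHRS2, SPTSSB and DNAH3. Mock lies furthest from 0 for SPTSSB (-0.91) and NOS1AP (0.79), followed by ABCA1 (0.48) and DHRS2 (-0.36).

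The siLong groups asked whether siRNAs to the long isoform moved the same genes, and were tested against mock. Both controls entered the choice of the genes, siControl in every contrast and mock through the required absence of a mock against siControl difference, so these tests are not fully free of it. In siLong1 against mock, 5 of the 7 genes passed (2 higher and 3 lower), where 52% of all genes did. In siLong2 against mock 4 passed (3 higher and 1 lower), where 50.3% of all genes did. Neither share is far from its background, so these counts are no result about the 7 genes. All adjusted p-values in this and the next paragraphs come from edgeR's quasi-likelihood test over all genes.

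DHRS2 fell by 1.15 (log2; SE 0.08, adjusted p = 1.1e-14) in siLong1 and by 2.30 (SE 0.09, adjusted p = 5.1e-21) in siLong2 against mock, the direction opposite to its siTotal values. ABCA1 rose in both, by 1.00 (SE 0.16, adjusted p = 1.4e-06) in siLong1 and by 1.69 (SE 0.15, adjusted p = 4.2e-12) in siLong2. In the 4 comparisons of these 2 genes the siLong libraries did not overlap mock, as for 37.7% of all genes upward and 37.9% downward in siLong1 and for 36% and 38.1% in siLong2.

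GASK1B rose by 1.47 (SE 0.17, adjusted p = 2.4e-09) in siLong1 and was at 0.34 (SE 0.19, adjusted p = 0.14) in siLong2. SPTSSB was at -0.10 (SE 0.20, adjusted p = 0.71) in siLong1 and rose by 0.96 (SE 0.18, adjusted p = 2.3e-05) in siLong2. Described against siControl, with no test, SPTSSB was at -1.01 in siLong1 and at 0.050 in siLong2.

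NOS1AP was at 0.34 (SE 0.15, adjusted p = 0.059) in siLong1 and rose by 0.84 (SE 0.14, adjusted p = 6.7e-06) in siLong2. Described against siControl, with no test, it was at 1.13 in siLong1. MGAT4A fell by 0.32 (SE 0.09, adjusted p = 0.0032) in siLong1 and was at -0.08 (SE 0.09, adjusted p = 0.47) in siLong2, both smaller in size than its siTotal1 and siTotal2 values against mock of -0.89 and -1.02, a difference that was not tested. DNAH3 fell by 0.97 (SE 0.33, adjusted p = 0.012) in siLong1, where it had 11 and 12 reads, and was at -0.21 (adjusted p = 0.58) in siLong2. Without mock replicate 1 the siLong1 value of DNAH3 was -0.75 (adjusted p = 0.15), and without siLong1 replicate 1 or 2 it did not pass either (adjusted p = 0.058 and 0.059).

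**Figure D3:**
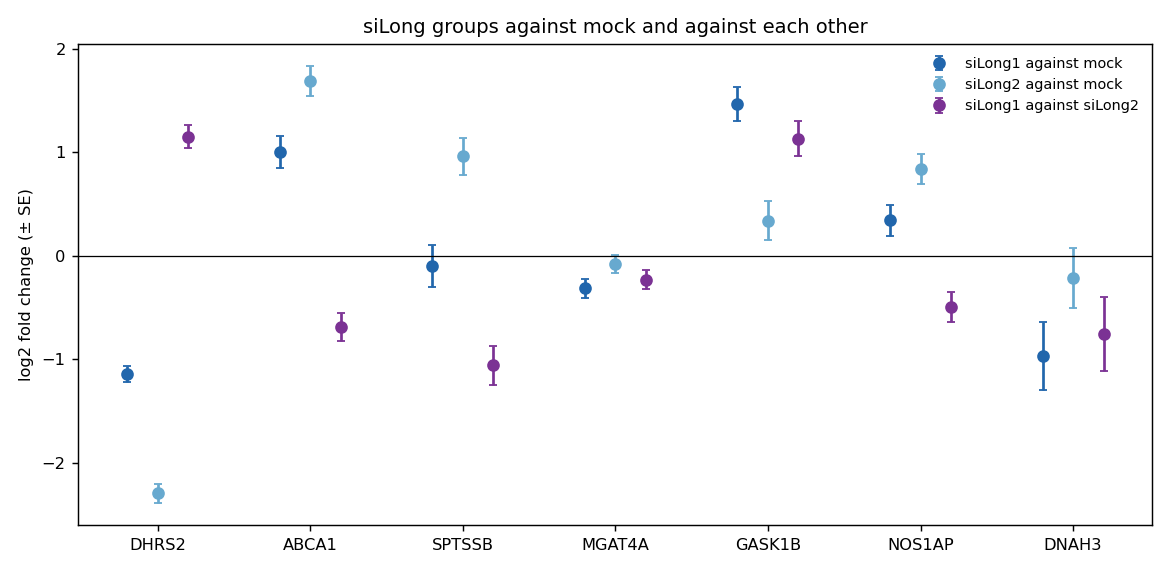
Log2 fold changes with SE bars for siLong1 against mock, siLong2 against mock and siLong1 against siLong2. DHRS2 is below 0 and ABCA1 above 0 in both siLong groups, and GASK1B is high in siLong1 (1.47) and lower in siLong2 (0.34, not called).

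The direct test of siLong1 against siLong2 compared only libraries outside the choice of the genes, with a spread estimated over all 12 libraries. It passed for 6 of the 7 genes (2 higher and 4 lower in siLong1), where 53.7% of all genes passed. DHRS2 was higher in siLong1 by 1.15 (SE 0.11, adjusted p = 4.9e-11) and GASK1B by 1.13 (SE 0.17, adjusted p = 4.8e-07). SPTSSB was lower in siLong1 by this test, at -1.06 (SE 0.19, adjusted p = 1.1e-05), as were ABCA1 at -0.69 (SE 0.14, adjusted p = 6.1e-05) and NOS1AP at -0.50 (SE 0.14, adjusted p = 0.0036). Without siLong1 replicate 1 the NOS1AP value was -0.39 and did not pass (adjusted p = 0.068).

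MGAT4A was lower in siLong1 than in siLong2 by a small amount, -0.23 (SE 0.09, adjusted p = 0.032), a call that ended without any 1 of the 4 siLong libraries and in DESeq2. DNAH3 was at -0.76 (SE 0.35, adjusted p = 0.074) and did not pass. NFYA itself was lower in siLong1 than in siLong2, at -0.57 (log2; adjusted p = 3.3e-12).

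Genes related to the 7 by pathway or family were counted from lists that leave the 7 out. Over all genes, 22.9% were higher and 20.5% lower in siTotal1 against siControl, 22.6% higher and 22.6% lower in siTotal2, and 19.5% higher and 20.3% lower in mock. The comparisons share the siControl libraries, so their values are set side by side only. The median of all genes tested was 0.01 in siTotal1 and 0.00 in siTotal2.

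In the short-chain dehydrogenase/reductase list, the family of DHRS2, 14 of 40 tested genes rose and 6 fell in siTotal1 (median 0.10), 15 rose and 5 fell in siTotal2 (median 0.13), and 13 rose and 4 fell in mock (median 0.12). Against mock, 11 rose and 9 fell in siTotal1 (22.1% and 18.7% of all genes) and 11 rose and 6 fell in siTotal2 (14.1% and 12.6% of all genes). CBR4, a quinone and carbonyl reductase, rose by 0.82 and 0.90 in siTotal1 and siTotal2 and was at 0.61 in mock. BDH2, a cytosolic hydroxybutyrate dehydrogenase, rose by 0.65 and 0.82 (mock 0.15), and HSD11B2, which inactivates cortisol, by 0.41 and 0.28 (mock 0.42). RDH11, a retinal reductase, was the 1 named gene of the list that fell, by 0.66 and 0.57 (mock -0.55). DHRS4, a close relative of DHRS2 named here after its values were seen, was at -0.22 in siTotal1 (adjusted p = 0.041) and 0.03 in siTotal2 (adjusted p = 0.77).

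Among LXR targets and sterol efflux genes, the class of ABCA1, 4 of 16 rose and 5 fell in siTotal1 (median 0.01), 4 rose and 5 fell in siTotal2 (median 0.12), and 4 rose and 4 fell in mock (median -0.06). Against mock, 5 rose and 5 fell in siTotal1 and 1 rose and 2 fell in siTotal2. The lysosomal sterol carrier gene NPC2 rose by 0.85 and 0.51, with mock at 0.39. NR1H3, which encodes LXR alpha, fell by 0.58 and 0.29 (mock -0.21), and SMPDL3A by 0.50 and 0.46 (mock -0.65). Sterol synthesis and uptake genes fell in 11 of 24 and rose in 7 in siTotal1 (median -0.09), fell in 14 and rose in 6 in siTotal2 (median -0.18), and fell in 15 and rose in 4 in mock (median -0.17). HMGCS1, which encodes the synthase before the rate-limiting step, fell by 1.05 and 0.91 (mock -1.08), the mevalonate kinase gene MVK by 1.21 and 0.18 (mock -0.35) and INSIG1, a sterol sensor partner, by 0.69 and 0.63 (mock -0.47), while the lanosterol synthase gene LSS rose by 0.69 and 0.57 (mock 0.52). With mock as the reference the list no longer leaned down, with 10 higher and 8 lower in siTotal1 and 9 higher and 3 lower in siTotal2. HMGCS1 was then at 0.03 in siTotal1 and 0.17 in siTotal2, and MVK at -0.86 and 0.17. INSIG1 stayed lower, at -0.23 and -0.16.

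Of 26 sphingolipid synthesis genes, the pathway of SPTSSB, 12 rose and 5 fell in siTotal1 (median 0.09), 6 rose and 11 fell in siTotal2 (median -0.04), and 2 rose and 11 fell in mock (median -0.14). Against mock, 17 rose and 4 fell in siTotal1 (median 0.26) and 9 rose and 3 fell in siTotal2 (median 0.06), so the siTotal2 lean turned with the control. SPTSSA, the other small subunit of serine palmitoyltransferase, fell in both siTotal groups, by 0.60 (SE 0.07, adjusted p = 5.5e-09) and 0.45 (SE 0.07, adjusted p = 9.6e-07), with mock at -0.21. SPTSSA averaged 18.95 CPM in siTotal1, 21.0 in siTotal2, 24.8 in mock and 28.7 in siControl, so it did not share the high SPTSSB level of siTotal2. SGPL1, which cleaves sphingosine phosphate, rose by 0.63 and 0.32 (mock 0.06), and B4GALT6, a lactosylceramide synthase, by 0.94 and 1.25 (mock 1.25). SPHK1, a sphingosine kinase gene, fell by 0.90 and 0.35 (mock -0.71). With mock as the reference, B4GALT6 was at -0.31 in siTotal1 and -1.1e-04 in siTotal2, and SPHK1 at -0.19 and 0.37. The B4GALT6 direction in siTotal1 and the SPHK1 direction in siTotal2 thus turned with the control.

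Of 24 N-glycan processing and branching genes, the pathway of MGAT4A, 11 rose and 6 fell in siTotal1 (median 0.12), 8 rose and 7 fell in siTotal2 (median -0.0030), and 8 rose and 6 fell in mock (median -0.03). Against mock, 9 rose and 8 fell in siTotal1 and 5 rose and 4 fell in siTotal2. MGAT5, which adds a further branch, fell by 0.47 (SE 0.05, adjusted p = 2.2e-10) in siTotal1 and 0.56 (SE 0.05, adjusted p = 2.0e-12) in siTotal2, with mock at -0.15. MGAT4B, the isoenzyme of MGAT4A and named after its values were seen, was at 0.16 in both siTotal groups (adjusted p = 0.0032 and 0.0026) and at 0.18 in mock. MAN1A1, a mannose-trimming enzyme, rose by 0.29 and 1.24 (mock 0.79). MGAT2 rose by 0.54 and 0.44 (mock 0.41) and the sialyltransferase gene ST6GAL1 by 0.31 and 0.25 (mock 0.33). MAN1A1 was at -0.50 in siTotal1 and 0.45 in siTotal2 with mock as the reference, so its siTotal1 direction turned with the control.

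Of 9 secretory-pathway kinase genes, the family of GASK1B, 4 rose and 0 fell in siTotal1 (median 0.46), 4 rose and 3 fell in siTotal2 (median 0.27), and 4 rose and 0 fell in mock (median 0.28). Against mock, 4 rose and 2 fell in siTotal1 (median 0.16) and 0 rose and 4 fell in siTotal2 (median -0.10), so the siTotal2 lean turned here too. GASK1A, the closest relative of GASK1B, rose by 0.96 (SE 0.22, adjusted p = 5.3e-04) and 0.57 (SE 0.23, adjusted p = 0.043), with mock at 0.36. Its mean level was 1.97 CPM in siTotal1 and 1.50 CPM in siTotal2, against 1.30 CPM in mock and 1.01 CPM in siControl. Against mock it was at 0.59 in siTotal1 (adjusted p = 0.019) and did not pass in siTotal2 (0.20, adjusted p = 0.53). The less studied DIPK1A rose by 0.48 and 0.34 (mock 0.14) and DIPK1B by 0.46 and 0.27 (mock 0.29).

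Of 18 nitric oxide and NOS1AP partner genes, 6 rose and 4 fell in siTotal1 (median 0.08), 8 rose and 3 fell in siTotal2 (median 0.12), and 7 rose and 4 fell in mock (median 0.09). Against mock, 5 rose and 4 fell in siTotal1 and 3 rose and 1 fell in siTotal2. The planar polarity gene PRICKLE1 rose by 1.57 and 0.69 (mock 0.37). DDAH1, which degrades an inhibitor of nitric oxide synthases, rose by 0.82 and 0.42 (mock -0.05), its relative DDAH2 by 0.32 and 0.48 (mock 0.37) and the synaptic scaffold gene DLG4 by 0.27 and 0.70 (mock 0.10).

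Of 27 axonemal dynein and motile cilium genes, the class of DNAH3, 4 rose and 4 fell in siTotal1 (median 0.01), 8 rose and 2 fell in siTotal2 (median 0.12), and 8 rose and 3 fell in mock (median 0.01). Against mock, 2 rose and 5 fell in siTotal1 and 3 rose and 3 fell in siTotal2. The dynein heavy chain gene DNAH2 rose by 0.90 and 1.07 (mock 0.89) and DNAH5 fell by 0.66 and 1.42 (mock -0.87). The dynein assembly factor gene DNAAF5 rose by 0.43 and 0.16 (mock 0.44) and DNAAF3 fell by 0.19 and 0.33 (mock -0.23). DNAAF5 was at -0.01 in siTotal1 and -0.28 in siTotal2 with mock as the reference, so its rise was not seen against mock. The 8 markers of multiciliated cells used here, of the 9 listed, summed to 8.19 to 10.45 CPM in siTotal1 and 9.06 to 9.09 in siTotal2, mostly MCIDAS. Their sum was 11.41 to 11.78 CPM in siLong1, 8.86 to 9.51 in siLong2, 9.06 to 9.53 in mock and 9.81 to 11.01 in siControl. FOXJ1, the master regulator of motile cilia, reached 0.255 CPM at most, and DNAI2, HYDIN and SPAG6 had 0 reads in at least 1 library and reached 0.113 CPM at most. DNAI1, a dynein intermediate chain gene among those markers and named after its values were seen, averaged 0.474 CPM in siTotal1, 1.14 in siTotal2, 0.232 in siLong1, 0.323 in siLong2, 0.506 in mock and 0.704 in siControl. Like DNAH3, its mean was highest in siTotal2 and lowest in siLong1. The siTotal2 libraries were far apart in DNAI1, with an SD of 0.479 CPM against 0.119 in siControl. In siTotal2 DNAI1 was at 0.70 against siControl (adjusted p = 0.053) and at 1.17 against mock (adjusted p = 0.0035), and its bearing on the DNAH3 values was not tested. Other markers of that list had other orders. DNAH5 was lowest in siTotal2, at a mean of 0.630 CPM against 1.67 in siControl. RSPH4A and MCIDAS were highest in siLong1, at 1.19 and 8.98 CPM, against 0.376 and 6.66 in siTotal2.

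**Figure D4:**
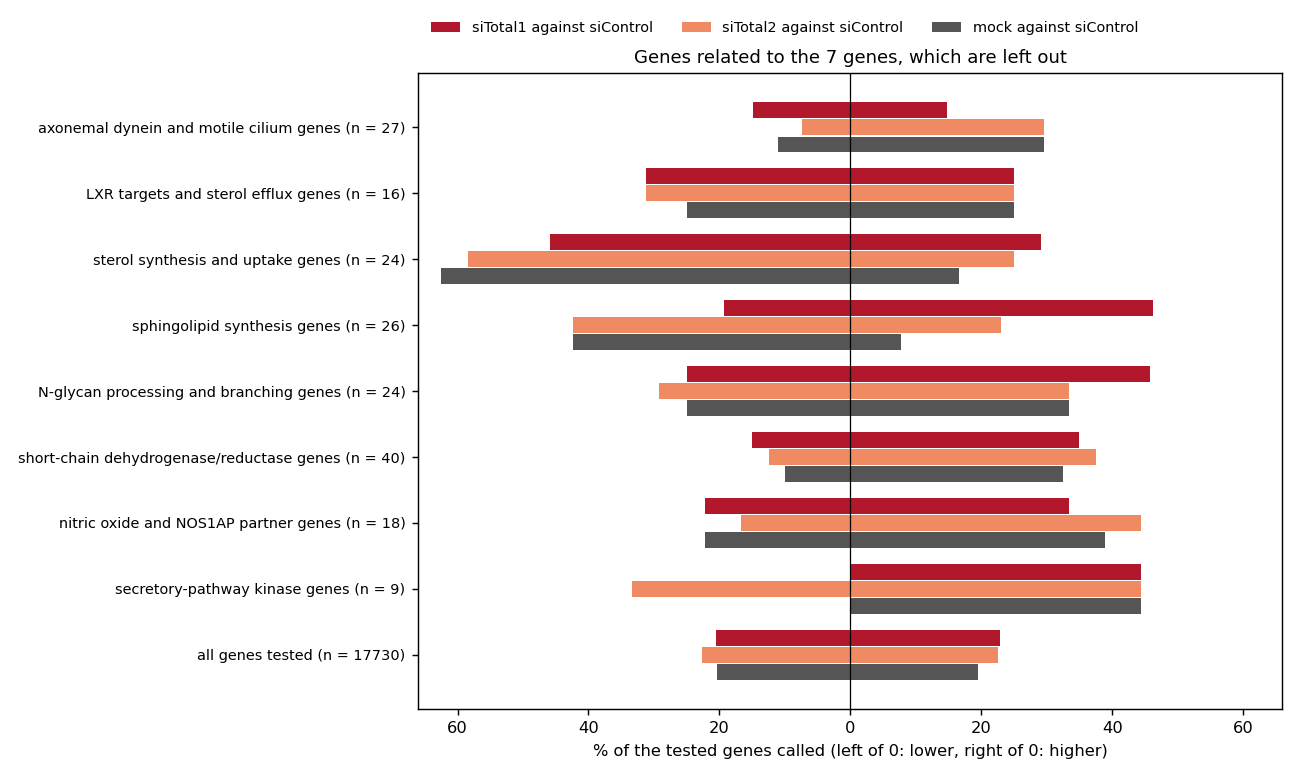
Share of each list's tested genes called higher (right of 0) or lower (left of 0) in siTotal1, siTotal2 and mock against siControl, with all genes tested at the bottom. Sphingolipid synthesis genes were called higher in 12 of 26 in siTotal1 and in 2 of 26 in mock, and sterol synthesis genes lower in 15 of 24 in mock.

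The partner subunit genes of NF-Y were called higher in both siTotal groups. NFYB rose by 0.84 and 0.70 and NFYC by 0.82 and 0.61 in siTotal1 and siTotal2 against siControl (adjusted p between 2.0e-16 and 1.3e-12), with mock at 0.05 (adjusted p = 0.52) and 0.06 (adjusted p = 0.33).

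The genes most like each of the 7 over the 12 libraries were found by Pearson correlation of log2 CPM among 12073 genes with an average log2 CPM of at least 1. This is a description: the libraries are 6 pairs of replicates, and the nearest of many genes always has a high value. NOS1AP was most like MAMLD1 (r = 0.99, Spearman rho = 0.95) and DCBLD2 (0.97, rho = 0.94), and ABCA1 most like APPBP2 (0.99, rho = 0.95) and the p53 target SESN1 (0.98, rho = 0.96). SPTSSB was most like the histone gene H2AC6 (0.97, rho = 0.91) and MYO18A (0.94, rho = 0.92), and MGAT4A most like PROM1 (0.96, rho = 0.81) and TIMM44 (0.95, rho = 0.71). DHRS2 was most like BBIP1 (0.95, rho = 0.90) and SYNE2 (0.95, rho = 0.92), GASK1B most like GOLIM4 (0.95, rho = 0.93) and SUCLA2 (0.92, rho = 0.87), and DNAH3 most like ATP2A3 (0.93, rho = 0.73) and SDC3 (0.93, rho = 0.90). The likeness is in shape more than in size: DHRS2 ranged over 5.91 log2 units and BBIP1 over 1.14, while SPTSSB and H2AC6 ranged over 2.92 and 2.83.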

How the data were processed

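Read counts per Ensembl gene were deposited by the authors without normalization. Per the submitters' processing notes, the tools were STAR 2.4.0f1 and featureCounts with the hg19 build. The library kit keeps strand per the labels, but the counting's strand setting and annotation were not stated. How reads of overlapping genes were counted is therefore not known. Names matched 52526 of 63677 identifiers; positions and exonic lengths are from GENCODE 29 (GRCh38), matched by identifier. Genes passing filterByExpr (minimum count 10, total 15) were scaled by TMM and fitted with edgeR 4.0.16 (R 4.3.3; quasi-likelihood, 6 groups, 6 residual degrees of freedom). P-values were Benjamini-Hochberg adjusted over all 17730 genes and called under 0.05. The tests were checked on simulated counts. The 7 genes and the lists were chosen with earlier results of these data known. Genes named besides the 7 are the NF-Y subunits, up to 4 of each list called alike in both siTotal groups, and the 2 most correlated with each of the 7; 1 gene that this rule names is not reported here. No replicate pair looked like 1 library deposited again (chi-square over its degrees of freedom 1.84 to 7.47). DESeq2 1.42.0, its size factors, no filter, only the groups compared, a replicate block, other references and leaving out each library were tried.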

Additional observations from a re-analysis of the deposited data

Results flagged for a closer look

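The siRNAs to the long isoform gave different levels for 6 of the 7 genes in the direct test of siLong1 against siLong2: DHRS2 at 1.15, GASK1B at 1.13, SPTSSB at -1.06, ABCA1 at -0.69, NOS1AP at -0.50 and MGAT4A at -0.23 (log2). Of all genes, 53.7% passed the same test. The NOS1AP call ended without siLong1 replicate 1 (-0.39), and the MGAT4A call without any 1 siLong library. SPTSSB also lay on opposite sides of siControl in the siTotal groups, at -1.08 in siTotal1 and 1.64 in siTotal2, with every library of each group on its side; that difference was not tested, because the gene was chosen from these values.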

How the results depend on the processing

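Values moved most with the control used. Against siControl, which entered the choice of the genes, so that no test is read, SPTSSB was at -1.01 and NOS1AP at 1.13 in siLong1, and SPTSSB at 0.050 and MGAT4A at -0.23 in siLong2. Against both controls, likewise with no test read, siLong1 had SPTSSB at -0.55 and NOS1AP at 0.73. Genes called in siTotal2 against siControl numbered 7994, and 4729 with mock as the reference. Of the described siTotal values, 20 of 28 moved by more than the replicate spread with another reference and 0 changed sign. NOS1AP in siLong1 passed when only the groups compared were fitted (0.35), and MGAT4A in siLong1 against siLong2 did not pass in DESeq2 (-0.24). Leaving out 1 library gave ranges against mock of -0.28 to 0.026 for SPTSSB, 0.19 to 0.45 for NOS1AP and -1.14 to -0.75 for DNAH3 in siLong1, and of 0.13 to 0.55 for GASK1B and -0.38 to 0.014 for DNAH3 in siLong2. SPTSSB turned sign without siLong1 replicate 1 and DNAH3 without mock replicate 1. NOS1AP in siLong1 passed without siLong1 replicate 1 (adjusted p = 0.043) and GASK1B in siLong2 without mock replicate 2 (adjusted p = 0.045). For siLong1 against siLong2 the ranges were -0.27 to -0.22 for MGAT4A and -0.65 to -0.39 for NOS1AP, whose call was lost without siLong1 replicate 1 (adjusted p = 0.068). The causes were not tested. Same-numbered libraries had correlations of -0.085 to 0.099 over 15 pairs of groups. With 2 libraries per group, such values cannot exclude a batch shared by same-numbered libraries. A replicate block gave 9248, 8939 and 9550 called genes in siLong1 against mock, siLong2 against mock and siLong1 against siLong2, and ended no call among the 7. DNAH3, with 11 to 35 reads outside siTotal, has the least depth.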
